A study of Mus musculus with 9 samples.

Results

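LIM homeobox genes encode transcription factors in which a pair of zinc-binding LIM domains precedes a DNA-binding homeodomain. The 10 genes described here were Lhx1, Lhx2, Lhx3, Lhx4, Lhx6, Lhx8, Lhx9, Isl1, Isl2 and Lmx1b, out of 27179 genes in the count table. They were chosen by name as members of this family, with values from these libraries already in view: Lhx3 had been seen to fall and Lhx2 to be highest on day 7. Their own differences between days are therefore given as a description, without p-values. The family's other 2 genes in the list fixed for comparison, Lhx5 and Lmx1a, are described beside them.

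LIM homeodomain proteins work in complexes. The LIM domains bind the adaptor proteins Ldb1 and Ldb2, which dimerise and link several factors on DNA, and combinations of family members help to set neuronal identity. Outside the nervous system, members are known for roles in the pituitary, the heart, the limb, the kidney and the gonad. The LIM-only proteins (Lmo genes) have no homeodomain and compete for the same adaptors.

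The libraries came from pneumospheres, spheres grown in suspension from dissociated lungs of C57/B6 mouse embryos at embryonic day 11.5. All 3 groups shared the same treatment: growth in medium with basic FGF, EGF, heparin and B27 under 5% oxygen, with no genetic change or drug named in the labels. The groups differed in day of culture, with 3 libraries each on days 3, 7 and 10. The cells were split on days 3 and 7, so time in culture and splitting cannot be told apart in comparisons between days. Before culture, cells that attached to plastic within a short plating were left behind. Whether libraries of the same day were grown separately or from different litters is not stated in the labels, so errors and p-values here measure only the spread between these samples.

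Library totals ran from 20716878 to 30466712 counts, and 3 counts, the upper limit that a count of 0 allows, corresponded to 0.0985 to 0.145 CPM (counts scaled to a common library total). The labelled tissue was not matched by its epithelial markers: Nkx2-1 and Foxa1 had 0 counts in all 9 libraries, and the 9 lung epithelium markers summed to at most 1.94 CPM in any library. The 9 lung mesenchyme markers summed to between 5437 and 16624 CPM. Most of that sum was Col1a1, a collagen gene of many fibroblasts, at 3856 ± 259 CPM on day 3 and 11697 ± 1488 on day 10. The lung mesenchyme factors Tbx4 (12.4 ± 0.843 to 1.89 ± 0.426 CPM), Tbx5 (48.7 ± 3.55 to 6.96 ± 0.519 CPM) and Tcf21 (11.2 ± 1.23 to 4.24 ± 1.58 CPM) fell. Foxf1 of the same list stood at 8.04 ± 0.758 and 8.22 ± 0.555 CPM on those days. Pdgfra, Pdgfrb, Vim and Twist1 were higher on day 10. In the edgeR fit described below, 5 of the 9 were called higher and 3 lower on day 10, beside 29.5% and 27.2% of all genes. In day 3 replicate 2, 6.79% of all counts fell on 1 gene ID without a name, and an alternative fit left out that library together with day 10 replicate 3. Levels below are CPM normalised with TMM factors (trimmed mean of M-values). In RNA from whole cultures, fewer cells of a type and less RNA per cell cannot be told apart.

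Of the 10 members, 4 passed the filter on low counts: Lhx3, Lhx2, Isl1 and Isl2. The other 6 never reached more than 8 counts in a library and were not tested. Among the 4, the edgeR fit over all 9 libraries called 2 higher and 1 lower on day 7 than on day 3, where 22.7% and 19.0% of all 14940 genes tested were called (41.8% together). From day 7 to day 10 it called 0 higher and 1 lower, where it called 4.41% and 4.10% of all genes (8.51% together). From day 3 to day 10 it called 1 higher and 2 lower, where it called 29.5% and 27.2% (56.7% together). Day 7 against the mean of days 3 and 10 gave 2 higher and 0 lower, beside 5.96% and 2.06% of all genes (8.03% together). These comparisons share their libraries and were in view when the members were chosen, and nothing is read from the counts.

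Lhx3, a factor of motor neurons, spinal interneurons and the pituitary, was almost confined to day 3. Its gene (Entrez 16871) lies on the minus strand of chromosome 2, from 26200212 to 26208249 in GRCm38. On day 3 the libraries held 14.4, 17.0 and 12.5 CPM. On day 7 they held 0.460, 0.329 and 0.0780 CPM, and on day 10 they held 0, 0 and 0.141 CPM. No later library came near any day 3 library, whereas the values of days 7 and 10 overlapped.

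The means for Lhx3 were 14.6 ± 2.25 CPM (SD, n = 3) on day 3 and 0.289 ± 0.194 CPM on day 7. In summed counts, 1069 on day 3 stood against 24 on day 7, a ratio of 49.2 (95% counting interval 32.9 to 77.1), and the fitted log2 change was -5.60 (SE 0.46). All 4 counts of day 10 came from replicate 3. Against the day 3 mean, the level in the other 2 libraries of day 10, both at 0, was at least 109-fold lower when each is set at 3 counts. Intervals and limits of this kind cover counting error only and leave out the spread between libraries. The intervals use counts pooled over the 3 libraries of a day, and the reads carry no molecular identifiers.

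Lhx2, known for roles in the eye, forebrain, hair follicle and limb, moved the other way and was highest on day 7. Its gene (Entrez 16870) lies on the plus strand of chromosome 2, from 38339271 to 38369737. The day 3 libraries held 3.92, 3.63 and 3.13 CPM, and those of day 7 held 30.3, 39.3 and 23.5 CPM. The day 10 libraries held 16.7, 18.1 and 7.58 CPM. The 3 days did not overlap: every day 7 library lay above every day 10 library, and every day 10 library above every day 3 library.

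The means for Lhx2 were 3.56 ± 0.401, 31.1 ± 7.93 and 14.1 ± 5.71 CPM on days 3, 7 and 10. Fitted log2 changes were 3.12 (SE 0.33) from day 3 to day 7 and -1.14 (SE 0.30) from day 7 to day 10. Day 10 stayed above day 3, with a log2 change of 1.98 (SE 0.33). Within day 10, replicate 3 stood below the other 2 libraries. Without that library the step from day 7 to day 10 was -0.83 on the log2 scale. The gene models of 2 long noncoding RNAs, Gm27197 and Gm13584, overlap that of Lhx2, and neither is a row of the count table.

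**Figure D1:**
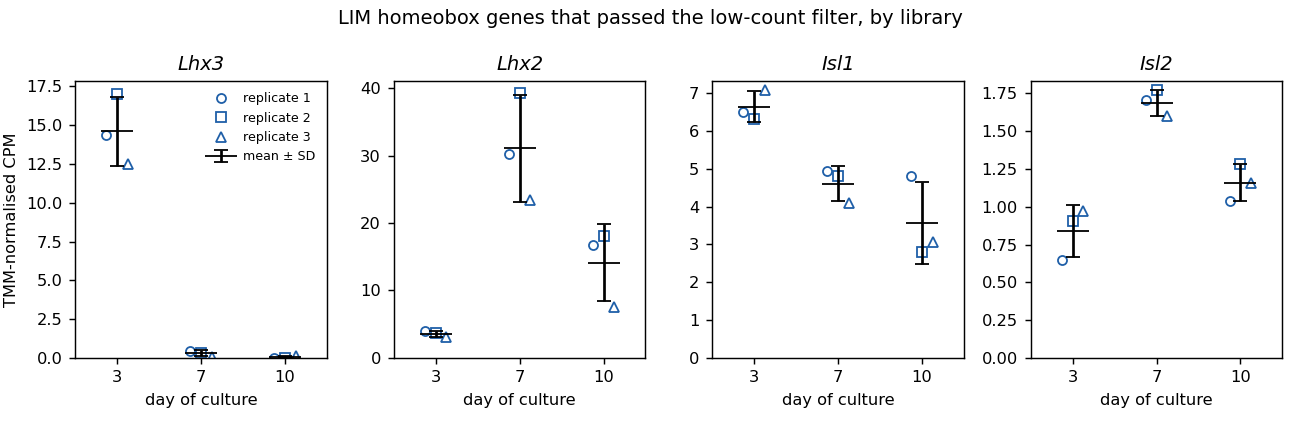
TMM-normalised CPM of Lhx3, Lhx2, Isl1 and Isl2 (vertical axes, each on its own linear scale from 0) by day of culture, with 1 symbol per replicate and black bars for the mean ± SD of 3 libraries. Lhx3 was at 12.5 CPM or more in each day 3 library and at 0.460 CPM or less afterwards, while Lhx2 was highest on day 7, between 23.5 and 39.3 CPM.

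The start regions of Lhx3 and Lhx2 are shown because these genes moved in opposite directions. Each stretch is the 250 bases before a RefSeq start in GRCm38.p6, at chr2:26206576-26206825 on the minus strand for the inner of 2 Lhx3 starts in the table and at chr2:38339031-38339280 on the plus strand for the outer of 2 Lhx2 starts. Neither overlaps an exon of its gene in GENCODE M21, although the RefSeq gene record of Lhx2, which starts at 38339271, takes in the last 10 bases of its window. CG dinucleotides are in capitals.
Lhx3: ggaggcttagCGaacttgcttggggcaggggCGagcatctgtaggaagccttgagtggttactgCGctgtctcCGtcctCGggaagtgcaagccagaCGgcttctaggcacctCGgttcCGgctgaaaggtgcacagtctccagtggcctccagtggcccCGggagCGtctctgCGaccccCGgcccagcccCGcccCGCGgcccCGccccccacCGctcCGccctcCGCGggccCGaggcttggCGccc
Lhx2: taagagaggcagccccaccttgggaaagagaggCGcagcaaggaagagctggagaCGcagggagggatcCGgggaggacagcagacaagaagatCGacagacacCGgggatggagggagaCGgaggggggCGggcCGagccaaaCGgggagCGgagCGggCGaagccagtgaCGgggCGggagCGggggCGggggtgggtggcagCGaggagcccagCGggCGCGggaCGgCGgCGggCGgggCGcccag

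Both windows shown were rich in G and C. The Lhx3 window had 70.8% GC and 22 CG dinucleotides, and the Lhx2 window 72.8% and 25, while the median of 32851 windows of this length was 52.4% and 6. The window of the outer Lhx3 start had 62.0% and 11, and that of the inner Lhx2 start 68.4% and 24. The hexamer GGGCGG, searched on both strands, was in both windows shown, in 7 of the 14 windows of all 10 members, and in 32.7% of all windows. TAATTA, which is its own reverse complement and the core of many homeodomain sites, was in 0 of the 14 member windows and in 4.8% of all windows. TATAAA was in 1 member window, that of the outer Lhx3 start, and in 12.4% of all. A match or its absence describes these letters only.

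Isl1, a factor of motor and sensory neurons and of cardiac progenitors, declined in smaller steps than Lhx3. Its gene (Entrez 16392) lies on the minus strand of chromosome 13, from 116298270 to 116309688. It held 6.51, 6.31 and 7.09 CPM on day 3, then 4.93, 4.81 and 4.10 CPM on day 7, and 4.81, 2.80 and 3.07 CPM on day 10. The day 3 libraries lay above all later ones, and day 10 replicate 1 lay within the range of day 7.

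The means for Isl1 were 6.64 ± 0.408, 4.61 ± 0.452 and 3.56 ± 1.09 CPM. The log2 change was -0.52 (SE 0.20) from day 3 to day 7 and -0.91 (SE 0.21) from day 3 to day 10. In summed counts, 482 on day 3 stood against 254 on day 10, a ratio of 1.92 (95% counting interval 1.64 to 2.24). Isl1 thus stayed detected in all 9 libraries, with at least 70 counts in each, over days when Lhx3 went to 0 in 2 libraries.

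Isl2, the paralogue of Isl1 and also a motor neuron factor, was lower in CPM and followed the order of days of Lhx2, not that of Isl1. Its gene (Entrez 104360) lies on the plus strand of chromosome 9, from 55538677 to 55547667. The libraries held 0.647, 0.907 and 0.969 CPM on day 3, then 1.71, 1.77 and 1.60 CPM on day 7, and 1.04, 1.28 and 1.16 CPM on day 10. No library of 1 day lay within the range of another day. The log2 change was 1.01 (SE 0.23) to day 7 and -0.54 (SE 0.23) from there to day 10. Its counts per library ran from 16 to 52.

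Among the 4 genes, the groups did not overlap between days 3 and 7 for all 4, between days 7 and 10 for Lhx2 and Isl2, and between days 3 and 10 for all 4. Over all genes tested the shares without overlap were 60.0%, 26.0% and 64.4%, and the rule that chose the members had used these contrasts.

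Reads of paralogues could be mixed up where their transcripts share long runs. The longest run shared by any pair of GENCODE M21 coding transcripts was short for each of the pairs that hold a counted gene, and lay in the coding part of both genes.
Lhx3 and Lhx4: gagcagctctcctccgagac
Lhx2 and Lhx9: atgaaggacagcctggt
Isl1 and Isl2: cggactgtgctcaacgagaagca

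These runs are 20, 17 and 23 bases long. Where Lhx3 had 283 to 430 counts in the day 3 libraries, Lhx4 had 0 to 2, and where Lhx2 had 603 to 956 counts in the day 7 libraries, Lhx9 had 0 to 2. Isl1 and Isl2, the pair with the longest shared run, both had counts, with 105 to 150 and 41 to 52 in the day 7 libraries. Whether reads of paralogues were mixed up was not tested.

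The 6 members below the filter were at or near the limit of detection. Lhx9, a factor of the gonad and limb, had 10 counts over the 3 libraries of day 3, 4 on day 7 and 1 on day 10, which gives a ratio of day 3 to day 10 of 10.1 (95% counting interval 1.44 to 438). Lhx6, known in forebrain interneurons and the oral mesenchyme, had 7, 7 and 18 counts on the 3 days. Its ratio of day 10 to day 3 was 2.55 (1.01 to 7.21). Its 0.239 ± 0.0860 CPM on day 10 is near the limit of 3 counts.

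Lhx1, a factor of the kidney, the head organiser and neurons, had 0, 7 and 2 counts on days 3, 7 and 10. Lhx4, which acts with Lhx3 in the pituitary, had 3, 2 and 0. Lmx1b, known for limb patterning and the kidney podocyte, had 2, 2 and 1. Lhx8, known in cholinergic forebrain neurons, had 1 count in all, in day 10 replicate 1. For these 4 genes the mean of each day was under 3 counts per library, and no fold is given.

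**Figure D2:**
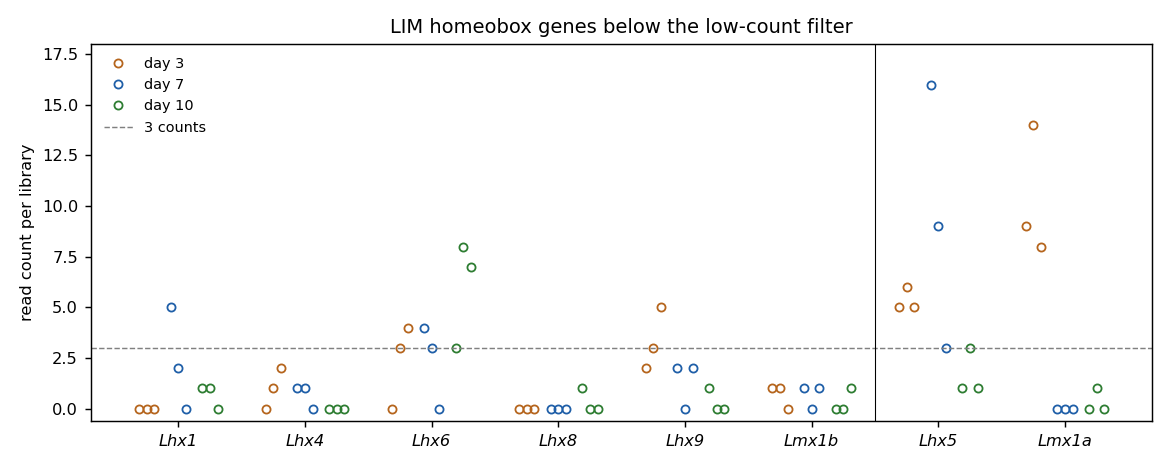
Read counts per library (vertical axis, linear) of the 6 members below the low-count filter and, right of the vertical line, of Lhx5 and Lmx1a, with 1 circle per library coloured by day and a dashed line at 3 counts. Lhx6 reached at most 8 counts, and Lmx1a had 8 to 14 counts on day 3 and at most 1 afterwards.

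Lhx5 and Lmx1a, the remaining 2 family genes, were also below the filter. Lmx1a, a factor of the roof plate and midbrain dopamine neurons, had 9, 14 and 8 counts in the day 3 libraries, 0 in all 3 of day 7 and 1 in those of day 10. With the day 7 libraries set at 3 counts each, its level was at least 3.74-fold lower on day 7 than on day 3. Lhx5, the paralogue of Lhx1 and a factor of spinal and forebrain neurons, had 16 counts on day 3, 28 on day 7 and 5 on day 10. Its ratio of day 7 to day 10 was 5.12 (95% counting interval 1.95 to 17.0), and of day 7 to day 3 it was 1.59 (0.828 to 3.14), an interval that includes 1.

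Levels of different genes were compared per length, as TMM-normalised CPM per kilobase of exon (RPKM). On day 3 the order was Lhx3 (6.05 ± 0.931 RPKM), Isl1 (2.64 ± 0.162), Lhx2 (1.02 ± 0.115) and Isl2 (0.395 ± 0.0804). On day 7 it was Lhx2 (8.91 ± 2.27), Isl1 (1.83 ± 0.180), Isl2 (0.796 ± 0.0404) and Lhx3 (0.120 ± 0.0804). On day 10 it was Lhx2 (4.05 ± 1.64), Isl1 (1.41 ± 0.433), Isl2 (0.546 ± 0.0562) and Lhx3 (0.0195 ± 0.0337). No neighbours in these orders overlapped in their libraries, and the closest were Lhx2, at 2.18 RPKM or more, and Isl1, at 1.91 RPKM or less, on day 10. Exon length was the union over coding transcripts, and the isoforms in these cells are not known.

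Of the summed RPKM of all 10 members, Lhx3 made up 59.3 ± 4.37% on day 3, 0.977 ± 0.635% on day 7 and 0.478 ± 0.828% on day 10. Lhx2 made up 10.1 ± 1.04%, 75.6 ± 3.21% and 64.5 ± 10.4%. The sum itself was 10.2 ± 0.827 RPKM on day 3, 11.7 ± 2.52 on day 7 and 6.12 ± 1.77 on day 10, and the ranges of days 3 and 7 overlapped. The 6 members below the filter together made up at most 1.82% in any library. Isl1 made up 26.2 ± 3.62%, 16.0 ± 2.23% and 24.0 ± 7.28%, and Isl2 made up 3.91 ± 0.897%, 6.96 ± 1.18% and 9.59 ± 3.46%. The leading gene of the 10 was Lhx3 on day 3 and Lhx2 on days 7 and 10.

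**Figure D3:**
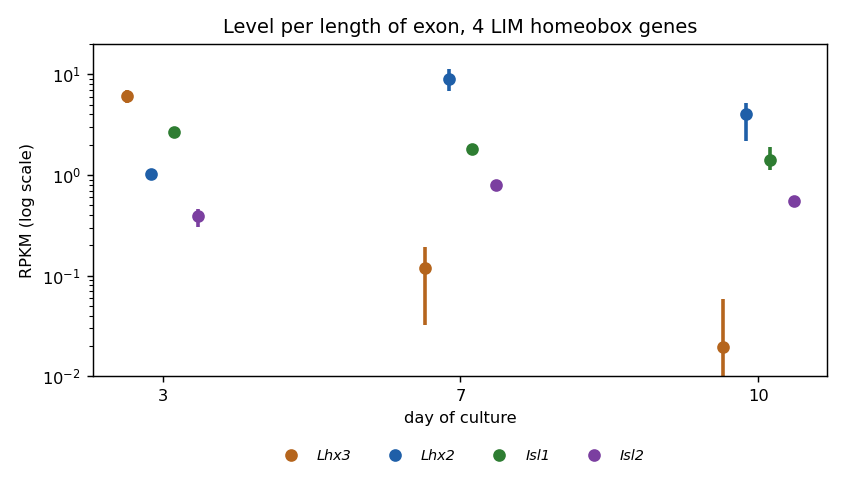
Mean level per length (dots, RPKM on a log axis) of Lhx3, Lhx2, Isl1 and Isl2 by day of culture, with vertical lines from the lowest to the highest of 3 libraries; the line of Lhx3 on day 10 ends at the axis because 2 libraries were at 0. Lhx3 led on day 3 with 6.05 RPKM and Lhx2 on days 7 and 10 with 8.91 and 4.05 RPKM.

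Leaving out each library in turn moved the members little between days 3 and 7. The log2 change of Lhx2 ran from 2.92 to 3.29, that of Lhx3 from -6.15 to -5.17, that of Isl1 from -0.58 to -0.44 and that of Isl2 from 0.85 to 1.12. From day 3 to day 10 the change of Lhx2 ran from 1.76 to 2.29 and that of Isl2 from 0.31 to 0.58. Isl1 ran from -1.17, without day 10 replicate 1, to -0.76. These 3 genes kept their direction in every such refit of these 2 comparisons, whereas for Lhx3 the refit without day 10 replicate 3 leaves day 10 at 0 counts and allows only the lower bound given above.

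The cofactors that LIM homeodomain proteins bind were outside the rule that chose the members, and all 10 genes of that list were tested. The list itself was chosen with earlier results of these data known, which limits what its p-values show. From day 3 to day 10, edgeR called 3 higher (Lmo1, Ldb2 and Lmo4) and 5 lower (Lmo2, Ssbp2, Ssbp3, Ssbp4 and Rlim), and their median log2 change was -0.23, where that of all genes was 0.00. The count of 8 of 10 stands against 56.7% of all genes. Ldb1 and Lmo3 were not called.

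Ldb1, the adaptor through which LIM homeodomain proteins pair, was abundant on each day, at 207 ± 10.1, 197 ± 18.4 and 188 ± 12.5 CPM. Its log2 change from day 3 to day 10 was -0.14 (SE 0.09, adjusted p = 0.194). Ldb2, its paralogue, was far lower per length, at 1.31 ± 0.155 RPKM on day 3 where Ldb1 stood at 47.9 ± 2.34 RPKM. Ldb2 rose from 3.15 to 3.88 CPM on day 3 to 5.03 to 6.71 CPM on day 7 and 8.92 to 13.1 CPM on day 10. Its log2 change over the whole time was 1.69 (SE 0.19, adjusted p = 4.51e-05), and no library of 1 day overlapped another day.

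The LIM-only genes went in different directions. Lmo1, best known as a T cell leukaemia oncogene, rose from 0.438 ± 0.0648 CPM on day 3 to 2.92 ± 0.642 on day 7, a log2 change of 2.72 (SE 0.25, adjusted p = 3.04e-05). It then stood at 3.51 ± 0.287 CPM on day 10. Lmo4, widely expressed, rose in both steps, from 58.4 ± 2.70 to 83.9 ± 3.83 CPM and then to 97.6 to 123 CPM in the day 10 libraries, and by 0.96 (SE 0.09, adjusted p = 1.94e-05) over the whole time. Lmo2, a cofactor of blood and endothelial development, fell from 11.7 ± 2.03 CPM to 3.35 to 5.69 CPM in the day 7 libraries and 3.18 ± 1.05 CPM on day 10. The change from day 3 to day 10 was -1.86 on the log2 scale (SE 0.27, adjusted p = 0.000275). Lmo3 stood at 1.26 ± 0.341 and 1.28 ± 0.579 CPM on days 3 and 10.

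Markers of red blood cells and vessels are given beside Lmo2. Over all genes, 19.0% were called lower on day 7 and 27.2% on day 10 than on day 3. Of 5 erythroid markers 4 were tested, and all 4 were called lower on day 7 and on day 10 than on day 3. All 5 together summed to between 1036 and 1240 CPM on day 3 and at most 6.13 CPM afterwards. Of 5 endothelial markers, Erg and Tek were called lower on day 7 than on day 3, and Erg, Tek and Kdr on day 10 (a count of 3, and of 2 without day 3 replicate 2 and day 10 replicate 3). Pecam1 and Cdh5 were not called (adjusted p = 0.510 and 0.373 on day 10). The endothelial sum, mostly Kdr, was 71.0 to 90.6 CPM on day 3, 76.4 to 164 on day 7 and at most 31.7 on day 10. None was at 0 in all 3 libraries of day 3, and of these 10 genes only Slc4a1 was at 0 in all 3 of day 10. Their part in the change of Lmo2 was not tested.

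The Ssbp proteins, single-stranded DNA-binding proteins that stabilise Ldb1, and Rlim, a ubiquitin ligase that targets LIM cofactors, changed less. Ssbp3 went from 357 ± 12.6 to 250 ± 7.21 and 245 ± 7.34 CPM, and Rlim from 211 ± 15.6 to 156 ± 2.97 and 160 ± 2.09 CPM. Their log2 changes from day 3 to day 10 were -0.54 (SE 0.06, adjusted p = 7.06e-05) and -0.40 (SE 0.07, adjusted p = 0.000646). The change of Ssbp2 was -0.46 (SE 0.09, adjusted p = 0.00206). Ssbp4 was highest on day 7, at 178 ± 11.2 CPM, between 154 ± 7.35 on day 3 and 123 ± 11.6 on day 10.

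The steps differed for some cofactors. Between days 3 and 7 edgeR called 3 of the 10 higher and 4 lower, beside 22.7% and 19.0% of all genes. Between days 7 and 10 it called Ldb2 and Lmo4 higher and Ssbp4 lower, beside 4.41% and 4.10% of all genes. Without day 7 replicate 2 or 3 the calls of Ldb2 and Lmo4 in the later step ended, and that of Lmo4 also without day 7 replicate 1 (adjusted p of up to 0.0659 and 0.0807). The call of Ssbp2 from day 3 to day 7 ended without day 3 replicate 2 or day 7 replicate 1 (up to 0.0557). The test of the second step minus the first, which is the same test as day 7 against the mean of days 3 and 10, called 2 cofactors higher and 2 lower on day 7, beside the 5.96% and 2.06% of all genes given above. Day 7 lay above that mean for Lmo1, by a log2 difference of 1.23 (SE 0.19, adjusted p = 0.00410), and for Ssbp4, by 0.37 (SE 0.07, adjusted p = 0.0131). Day 7 lay below it for Ssbp3 by a log2 difference of -0.25 (SE 0.06, adjusted p = 0.0259) and for Rlim by -0.24 (SE 0.06, adjusted p = 0.0362). The call of Ssbp4 ended only without day 7 replicate 1 among 17 alternatives (adjusted p 0.0741). Those of Ssbp3 and Rlim ended in 7 and 9 of the 17, among them the refits without any 1 library of day 7 and without replicate 1 or 3 of day 3 (up to 0.112 and 0.127), and for Rlim also those without replicate 2 of day 3 or of day 10.

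**Figure D4:**
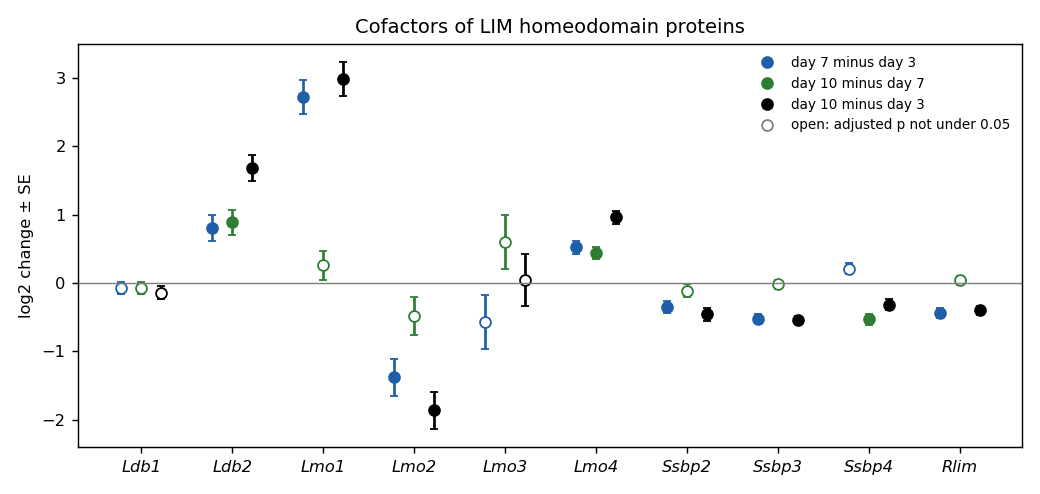
Fitted log2 change ± SE (vertical axis) of 10 cofactor genes in 3 comparisons between days, with filled circles where the edgeR adjusted p was under 0.05 and open circles elsewhere. Lmo1 rose by 2.98 from day 3 to day 10 and Lmo2 fell by 1.86, while Ldb1 lay near 0 in each comparison.

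Lhx3 and the Isl genes are known as partners in motor neurons, so genes of motor neurons were examined beside them. Of 11 genes in this list 5 were tested, and all 5 were called lower on day 10 than on day 3 (median log2 change -1.83), where 27.2% of all genes were called lower. The count was 4 without replicate 1 or 2 of day 3, and 4 without day 3 replicate 2 and day 10 replicate 3 together. Slc5a7, the choline transporter, fell from 18.5 ± 1.87 to 5.25 ± 2.89 CPM on day 10. Prph, the neuronal filament peripherin, had a change of -1.99 over the same days (SE 0.67, adjusted p = 0.0283), with a day 7 mean of 10.9 ± 7.64 CPM against 4.60 ± 1.54 on day 3.

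The defining genes of somatic motor neurons were at or near 0 on the day Lhx3 was high. Mnx1 had 0 counts in all 9 libraries, Olig2 had 1 count in all, and Chat had 7 counts over the 3 libraries of day 3. Of the pituitary genes, Gh and Prl had 0 counts in every library, and Pou1f1 had 1 count in all.

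General neuronal genes fell over the same days as Lhx3. All 11 were tested and 10 were called lower on day 10 than on day 3, beside 27.2% of all genes (median log2 change -4.33), the exception being Snap25. Stmn2, a microtubule regulator of growing axons, went from 23.8 ± 6.60 to 3.65 ± 1.35 and 0.320 ± 0.451 CPM. Gap43, a growth cone protein, and Elavl3, a neuronal RNA-binding protein, fell by 6.40 and 6.66 on the log2 scale (SE 0.44 and 0.50). The list summed to 117 to 164 CPM on day 3, 15.7 to 26.8 on day 7 and 5.61 to 7.12 on day 10, with no gene of the list at 0 in all 3 libraries of a day.

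Of the 11 autonomic and enteric neural crest genes, 9 were tested, of which 7 were called lower and 2 higher on day 10 than on day 3, beside 27.2% and 29.5% of all genes (median -5.09). Foxd3, a factor of neural crest, had 107 counts on day 3 and 1 on day 10, and Dbh, an enzyme of noradrenaline synthesis, had 201 and 3. This list summed to 98.9 to 119 CPM on day 3, 18.4 to 21.2 on day 7 and 15.0 to 16.6 on day 10. Th, the first enzyme of catecholamine synthesis, had 2 counts in all on day 3 and 0 on days 7 and 10. These counts are too few to read as a fall. The part of neuronal and neural crest transcripts in the fall of Lhx3 was not tested.

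**Figure D5:**
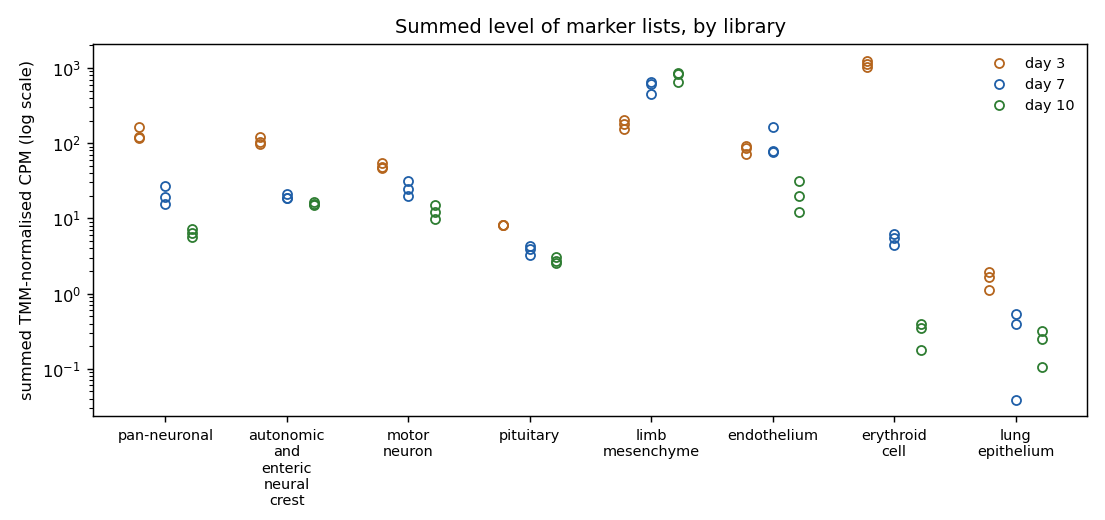
Summed TMM-normalised CPM (log axis) of 8 fixed marker lists, with 1 circle per library coloured by day of culture. The pan-neuronal list was at 117 to 164 CPM on day 3 and at most 7.12 CPM on day 10, and the limb mesenchyme list rose from at most 202 CPM on day 3 to at least 646 CPM on day 10.

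Genes of limb mesenchyme, where Lhx2, Lhx9 and Lmx1b are known to act, were higher on the later days. Of 11 genes 7 were tested, and all 7 were called higher on day 7 and on day 10 than on day 3 (medians 2.24 and 3.17), where 22.7% and 29.5% of all genes were called higher. On day 7 the count was 6 with upper-quartile factors, with library size alone, and without replicate 1 or 2 of day 3 or of day 7. Prrx1, a homeobox gene of early limb buds, had 70.0 ± 4.95 CPM on day 7 and 177 ± 30.4 on day 10, so it did not share the day 7 maximum of Lhx2. Msx1, a homeobox factor of BMP-responsive mesenchyme, rose from 1.12 ± 0.227 to 11.9 ± 5.39 and 15.2 ± 5.47 CPM. Grem1, a BMP antagonist, had a change of 3.20 over the whole time (SE 0.39, adjusted p = 8.63e-05). In 7 of the 9 refits without 1 library, 1 further gene of the list was called lower on day 10 than on day 3. Wnt7a, the dorsal ectoderm signal upstream of Lmx1b in the limb, had 0 counts on days 3 and 10, and Lmx1b had at most 1 count in any library.

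The shares called for the next 3 lists stand against 56.7% of all genes (29.5% higher and 27.2% lower), and nothing particular to a list is read from them. In the second heart field list, chosen for the cardiac role of Isl1, 8 of 9 genes were tested, with 4 lower and 2 higher on day 10 than on day 3 (median -0.57). Only 1 was higher without replicate 1 or 2 of day 3 or replicate 3 of day 10. Hand2, a factor of heart and sympathetic neurons, and Tbx5, a factor of heart, lung and forelimb, had changes of -4.42 (SE 0.32) and -2.81 (SE 0.11), and Tbx20, another cardiac T-box factor, of -1.67 (SE 0.30). In the nephric and gonad list, chosen for Lhx1 and Lhx9, 4 of 7 genes tested were lower and 1 was higher (median -0.72), with changes of -2.37 (SE 0.22) for Six4, -1.68 (SE 0.20) for Wt1 and 2.56 (SE 0.64) for Emx2. In the oral mesenchyme and GABA neuron list, chosen for Lhx6 and Lhx8, Dlx2 alone of 3 genes tested was called, higher by 2.64 (SE 0.47, adjusted p = 0.00109), and Gad1 and Gad2 had 2 counts or fewer in every library.

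For each of the 4 counted members, the 3 tested genes with the most similar pattern over the 9 libraries were found by Pearson's r of log2 CPM, among 14939 genes. With only 3 days, such values mostly reflect the order of the days, and they are given without a p. For Lhx3 they were Cadm1, an adhesion molecule (r = 0.995; 40.1 to 50.5, 5.97 to 8.94 and 3.00 to 4.87 CPM on the 3 days), Mapk6 (0.994) and Ube4b (0.993). The size of change differed: Mapk6 went only from 152 ± 5.19 to 79.7 ± 4.64 CPM.

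For Lhx2 the most similar genes were Asic3, an acid-sensing ion channel (r = 0.992), Tnmd, the tendon protein tenomodulin (0.984) and Ptprb, a phosphatase of endothelium (0.983). Tnmd went from 7.88 ± 1.84 to 205 ± 142 and 91.3 ± 61.6 CPM. For Isl1 they were Gm5853 (0.984), Nup35, a nucleoporin (0.975), and Gpx3, a secreted glutathione peroxidase (0.974; 28.3 ± 1.37 to 9.79 ± 3.09 CPM). For Isl2 they were Mvb12b (0.949), Ptx4 (0.946) and Nrep (0.944).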

How the data were processed

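Poly(A) RNA of 9 pneumosphere libraries, 3 each on days 3, 7 and 10, was sequenced from Illumina TruSeq libraries. The authors deposited 1 table of whole-number read counts per Entrez gene, made with featureCounts on mm10 per the submitters' processing notes; aligner, annotation, strand setting and multi-mapping rule are not named there, so reads of overlapping and antisense genes could not be told apart. Columns matched samples by name. Symbols came from RefSeq (25275 of 27179 IDs) and GENCODE M21, both on GRCm38, the assembly of mm10.

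Counts were kept by filterByExpr (14940 genes), scaled by TMM and fitted with edgeR 4.0.16 (robust quasi-likelihood, all 9 libraries, no block; R 4.3.3), with Benjamini-Hochberg adjustment over all genes and a threshold of 0.05. Each SE was taken from the log2 change and its F statistic. Replicates of a day differed by more than counting noise (chi-square per degree of freedom 8.37 to 133). The fit was tested on simulated data. Named were all members and cofactors, up to 3 called genes per partner list with the largest change and a mean of at least 1 CPM on a day, and the 3 genes most like each counted member; other genes were named after their values were seen. Some genes that this rule covers are not reported here. Members and lists were chosen with earlier results of these data known. The lung mesenchyme, mesothelium and leukocyte lists had 5 higher and 3 lower of 9 tested, 3 lower of 3, and 1 lower of 2 from day 3 to day 10. Over all genes, 29.5% were called higher and 27.2% lower. Alternatives used other scalings, filters, DESeq2 1.42.0, a replicate block, fewer libraries and pairwise fits.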

Additional observations from a re-analysis of the deposited data

How the results depend on the processing

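In refits of the log2 changes of the 4 counted members, 335 values moved by less than the spread between replicates and 16 by more, all 16 of Lhx3 or Isl1 without libraries of day 7 or 10. Lhx3 from day 3 to day 10 rests on 4 counts in day 10 replicate 3. The labels do not state what a replicate number marks, and the main fit did not take the numbers as pairs. Deviations of same-numbered libraries correlated above 0.1 in 5 of 9 pairs (-0.069 to 0.433). Those of other pairs ran from -0.356 to 0.221. These values do not exclude a pairing. A library correlated best with its own number in 12 of 18 comparisons, and the table's column names run consecutively within a number, which is a hint of shared handling and not the stated design. With the replicate block, members called were 2 higher and 1 lower on day 7 against day 3 and 1 higher and 2 lower on day 10 against day 3, and cofactors called were 3 higher and 5 lower on day 10 against day 3, the same counts as without it. The block moved list genes lower on day 10 from 41 to 44 against day 3 and from 22 to 20 against day 7, and those higher on day 10 than on day 3 from 17 to 16.

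Counts of calls that moved were as follows. Members lower on day 7 than on day 3 were 1, and 2 with upper-quartile factors, the DESeq2 Wald test and only the 2 groups compared (1 to 2 leaving out 1 library). Members lower on day 10 than on day 7 were 1, and 0 with no low-count filter or only the 2 groups compared, 2 with DESeq2 (0 to 2 leaving out 1 library). For day 7 against the mean of days 3 and 10, members higher were 2, and 1 with no filter, with DESeq2 and in the fit that dropped replicate 2 of day 3 and replicate 3 of day 10 (1 to 2 leaving out 1 library), and members lower were 0, and 1 with DESeq2. In that comparison cofactors lower were 2, and 1 with library size alone and without both libraries, 0 with no filter (0 to 2 leaving out 1 library). Cofactors higher there were 2 (1 to 2 leaving out 1 library), and the second step minus the first gave the mirror counts of these, with 0 to 2 higher and 1 to 2 lower. Cofactors higher on day 10 than on day 7 were 2, and 0 with only the 2 groups (0 to 2 leaving out 1 library). List genes of the other lists were 3 higher and 22 lower on day 10 than on day 7, with 1 and 6 in the fit of only the 2 groups, 14 lower without both libraries, and 1 to 4 higher and 11 to 18 lower leaving out 1 library. For day 7 against the mean of days 3 and 10 they were 9 higher and 7 lower, with 5 higher under no filter, 11 lower with DESeq2, and 1 to 9 higher and 4 to 7 lower leaving out 1 library. The cause of these moves was not tested. Library size alone moved the share of higher calls over all genes from 52.0% to 43.5% for day 10 against day 3 and from 51.8% to 39.3% for day 10 against day 7. The call of Ldb2 from day 7 to day 10 ended in 3 of 18 alternatives and that of Lmo4 in 4, each time without a day 7 library or in the fit of 2 groups. Genes with fewer than about 10 counts per library, 6 of the 10 members, were limited by depth.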

Other observations

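A few genes of the other lists shared the order of the libraries of Lhx2 and were picked after their values were seen. Kdr, a VEGF receptor of endothelium and its progenitors, held 70.3, 151 and 53.7 CPM in the day 7 libraries and 7.49, 24.5 and 6.35 CPM in those of day 10. Msx1, a homeobox factor of limb and craniofacial tissue, held 13.4, 16.4 and 5.89 CPM on day 7 and 15.4, 20.6 and 9.70 CPM on day 10. Lhx2 held 30.3, 39.3 and 23.5 CPM and then 16.7, 18.1 and 7.58 CPM, so replicate 2 was highest and replicate 3 lowest on both days for all 3 genes. Whether a replicate number marks a shared culture or day is not stated in the labels. The ranges of Msx1 on days 7 and 10 overlapped, unlike those of Lhx2, and Kdr held 54.9, 71.4 and 51.2 CPM on day 3, where Lhx2 was under 4 CPM in each library.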
